A study of Danio rerio with 8 samples.

Results

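Midkine and pleiotrophin are small secreted growth factors that bind heparin and promote the outgrowth of neurites. In zebrafish the family consists of the midkine paralogs mdka and mdkb and of pleiotrophin, ptn. The 3 genes were taken by symbol from a deposited table of raw read counts for 31901 zebrafish genes, and all 3 had enough reads to be tested.

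The libraries come from GFP-positive cells sorted by flow cytometry from larvae of the line BAC(pdgfrb:Gal4ff)ncv24;UAS:GFP, collected 4 days after fertilization. The 4 lesioned libraries came from larvae given a mechanical spinal cord lesion 1 day before collection, and the 4 unlesioned libraries from larvae without one. All 8 carry the same reporter, in which regulatory sequence of pdgfrb drives Gal4ff, and the labels describe its GFP-positive cells as myoseptal and perivascular. The number of larvae per library and whether libraries came from separate clutches were not given, so p-values measure only how these libraries vary, and that variation may be technical.

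Both proteins act outside the cell. They are held by the sulfated sugar chains of heparan sulfate and chondroitin sulfate proteoglycans and in mammals signal through several receptors, among them the receptor tyrosine phosphatase zeta, the receptor kinases ALK and LTK, syndecans, LDL receptor-related proteins and integrins. In zebrafish the midkine paralogs are known from the developing neural tube, and midkine is induced in several regenerating tissues of the adult fish.

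On GRCz11, mdka (ENSDARG00000036036) lies on the plus strand of chromosome 7 from 39166460 to 39178198, and its annotated exons cover 2750 bases in 6 separate blocks. The paralog mdkb (ENSDARG00000020708) lies on the plus strand of chromosome 25 from 7872135 to 7880878, with 1100 exon bases in 4 blocks. The 2 genes have related neighbours, since the nearest annotated gene is the muscarinic receptor gene chrm4a for mdka, at 2678 bases, and chrm4b for mdkb, at 1969 bases. The gene ptn (ENSDARG00000102340) is encoded on the minus strand of chromosome 4, between 1301436 and 1360495, with 2547 exon bases in 5 blocks, and its nearest neighbour is chrm2a at 16764 bases. Reads were counted without regard to strand, and no exon base of the 3 genes overlaps an exon of another annotated gene.

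Total counts ranged from 19552807 to 25358885 per library, and counts without molecular identifiers are not independent molecules. The reporter's own gene pdgfrb had 195 ± 68.5 CPM in lesioned and 213 ± 27.4 CPM in unlesioned libraries (SD, n = 4 each). CPM are read counts scaled for sequencing depth, with library totals adjusted by TMM factors. Markers of fibroblasts of the myosepta, tendon and sclerotome, 27 of 27 found, summed to 7314 to 10785 TPM in lesioned and 5098 to 11720.2 TPM in unlesioned libraries. None of these markers was at 0 in all libraries. TPM are reads per gene length scaled to the same total in each library, which allows levels of different genes to be compared.

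In each of the 8 libraries the order of the levels per length was mdka, then mdkb, then ptn. By mean TPM over all libraries mdka ranked 165th of the 31901 genes, mdkb 386th and ptn 6981st. The level of mdka was 744, 998, 753 and 662 TPM in lesioned 1 to 4, and 1002, 1051, 807 and 949.8 TPM in unlesioned 1 to 4. That of mdkb was 229, 286, 233 and 187 TPM in lesioned 1 to 4, against 475, 569, 411 and 578 TPM in unlesioned 1 to 4. Within each group the lowest mdka value lay above the highest mdkb value, so these levels differed beyond their spread. The level of ptn was 11.6, 6.86, 18 and 5.19 TPM in lesioned 1 to 4, and 8.49, 10.1, 14.3 and 1.3 TPM in unlesioned 1 to 4, below every mdkb value. The 3 genes together made 1034 ± 184 TPM in lesioned and 1469.7 ± 169 TPM in unlesioned libraries (SD, n = 4 each).

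The clearest difference between the groups was in mdkb. On the CPM scale it had 124, 145, 145 and 98.3 CPM in lesioned 1 to 4, against 261, 331, 284 and 335 CPM in unlesioned 1 to 4. Every lesioned library lay below every unlesioned library, with the lowest value in lesioned 4. The means were 128 ± 22.3 CPM in lesioned and 303 ± 35.8 CPM in unlesioned libraries (SD, n = 4 each). The fitted log2 fold change was -1.24 with an SE of 0.21, or 0.423 times the unlesioned level. In bulk samples, fewer cells that express a gene and less of its RNA per cell cannot be told apart.

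This difference did not pass the test over all genes. In edgeR's quasi-likelihood test mdkb had an unadjusted p of 0.000128 and a Benjamini-Hochberg adjusted p of 0.126, and the 95% interval of the log2 fold change ran from -1.70 to -0.78. Its unadjusted p ranked 16th among 15759 genes tested. DESeq2 called mdkb lower, with an adjusted p of 2.87e-05, and limma voom did not, with an adjusted p of 0.101. Among all genes tested, the share called in either direction was 0.019% in edgeR and 0.019% in limma voom, each with 3 genes higher (0.019%) and 0 lower (0.0%). In DESeq2 it was 6.4% of the 8077 genes with an adjusted p, made of 275 genes higher (3.4%) and 242 lower (3.0%). At an unadjusted p under 0.05 edgeR had 957 genes higher (6.07%) and 864 lower (5.48%), together 11.6% of those tested. The call on mdkb thus depended on the tool, while its log2 fold change lay between -1.31 and -1.09 in the 19 other settings tried. It was -1.14 in libraries 1 and 2 alone and -1.29 in libraries 3 and 4 alone.

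The paralog mdka had 1004, 1270.1, 1173 and 870.2 CPM in lesioned 1 to 4, and 1378, 1526, 1396 and 1373 CPM in unlesioned 1 to 4. Here too every lesioned library lay below every unlesioned one, but the gap was narrow, and on the TPM scale, which has no TMM factor, the groups overlapped. The means were 1079 ± 178 CPM in lesioned and 1418 ± 72.3 CPM in unlesioned libraries (SD, n = 4 each). The log2 fold change of mdka was -0.39 ± 0.19 (SE), with a 95% interval from -0.82 to 0.03 and an adjusted p of 0.475 in edgeR. With the library number as a block in edgeR, the interval ran from -0.73 to -0.08, below 0, and the adjusted p was 0.251. DESeq2 gave mdka an adjusted p of 0.247 and limma voom one of 0.342. With library size as the only scaling its log2 fold change was -0.24, where the median of all genes tested moved to 0.12 from -0.04 with TMM factors.

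Pleiotrophin varied between libraries of the same group far more than either midkine. The gene ptn had 14.5, 8.08, 26.0 and 6.31 CPM in lesioned 1 to 4, and 10.8, 13.6, 22.9 and 1.74 CPM in unlesioned 1 to 4. The groups overlapped almost completely, with the highest value in library 3 and the lowest in library 4 of each group. The coefficient of variation of ptn was 64.9% in lesioned and 71.0% in unlesioned libraries. It was 17.4% in lesioned and 11.8% in unlesioned libraries for mdkb, and 16.5% in lesioned and 5.10% in unlesioned libraries for mdka. The common biological coefficient of variation fitted over all genes tested was 74.9%. That value pools genes of every level, so it does not tell whether the spread of ptn was unusual for a gene of its level. The log2 fold change of ptn was 0.16 ± 0.70 (SE, adjusted p = 0.969 in edgeR). Its 95% interval ran from -1.39 to 1.71 and so covers changes of more than 1 log2 unit in either direction. Leaving out unlesioned 4, which held 37 counts of ptn, turned the value to -0.20, and leaving out lesioned 3, with 575 counts, turned it to -0.35.

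**Figure D1:**
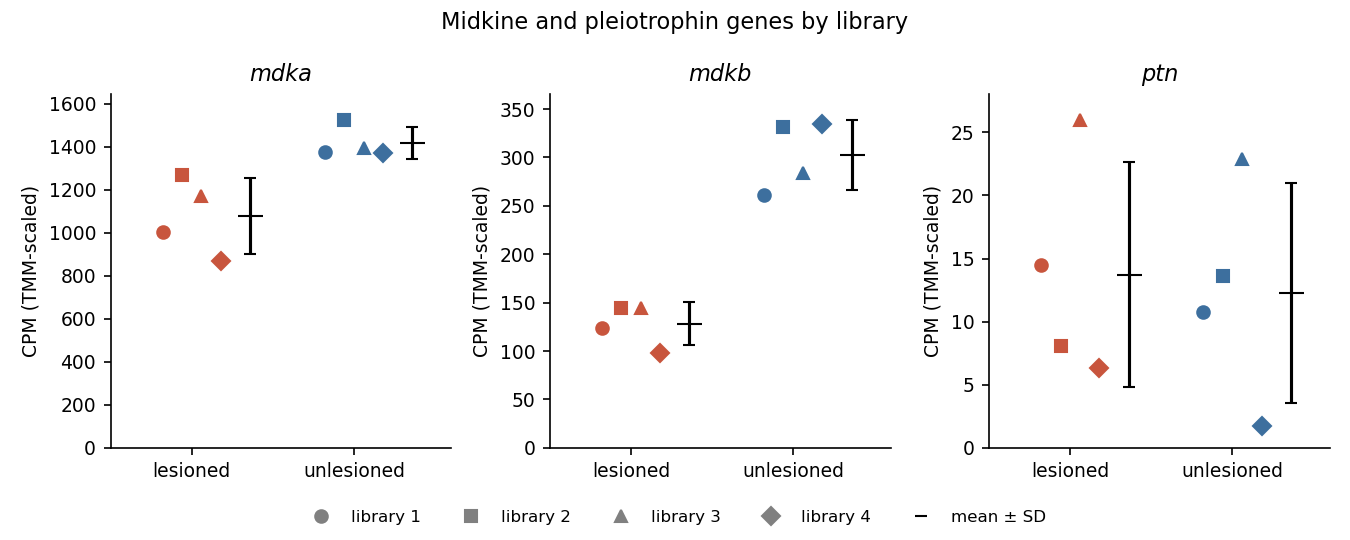
CPM, scaled by TMM factors, of mdka, mdkb and ptn in each library (points, marker shape by library number), with the mean and SD of 4 libraries beside each group. The 4 lesioned libraries lie between 98.3 and 145 CPM for mdkb and the 4 unlesioned ones between 261 and 335 CPM, while the groups of ptn overlap.

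**Figure D2:**
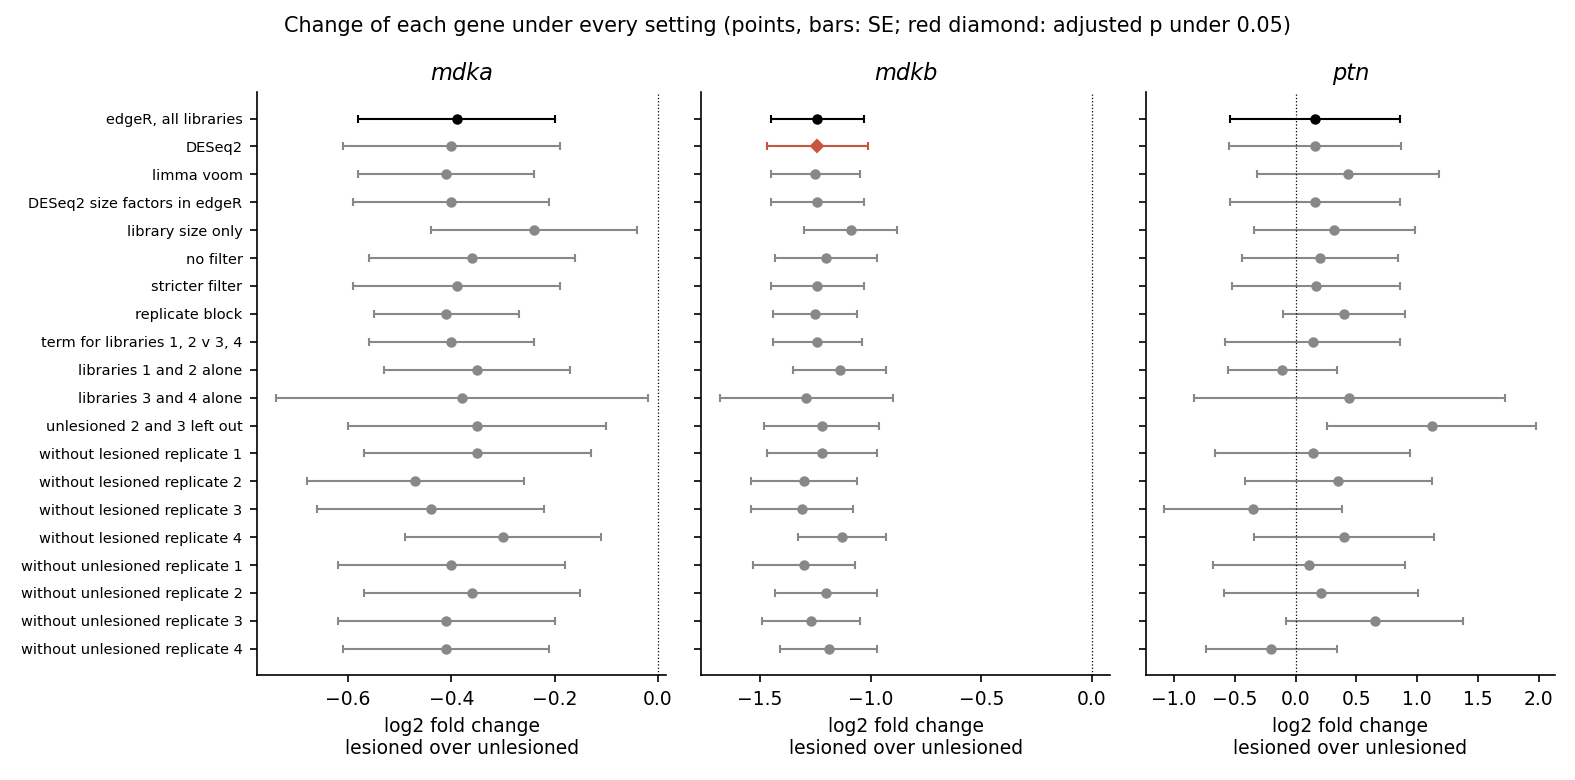
Log2 fold change, lesioned over unlesioned, with SE, of mdka, mdkb and ptn in edgeR with all libraries (black) and under each other setting (grey; red where the adjusted p is under 0.05). Values of mdkb lie between -1.31 and -1.09 and those of mdka between -0.47 and -0.24, while those of ptn lie on both sides of 0.

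Of the 3 genes, 2 had groups that did not overlap, both with the lesioned libraries lower, on the CPM scale. Over all genes tested the groups did not overlap for 9.23%, made of 616 genes lower (3.91%) and 839 higher (5.32%). With 3 genes this is a count and not a test. Libraries with the same number in both groups can also be set side by side. The ratio of lesioned over unlesioned CPM of mdkb was 0.474, 0.440, 0.509 and 0.294 at numbers 1 to 4. For mdka it was 0.729, 0.832, 0.840 and 0.634, and for ptn 1.34, 0.593, 1.14 and 3.63. At each number the ratio was below 1 for both midkines and lower for mdkb than for mdka. Any other pairing of the libraries would give the same. The CPM groups of each midkine do not overlap, and neither do the within-library ratios of mdka to mdkb given next. The order by number therefore adds nothing to the lack of overlap.

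The midkine paralogs were also compared within each library. The ratio of mdka to mdkb TPM was 3.24, 3.49, 3.24 and 3.54 in lesioned 1 to 4, against 2.11, 1.85, 1.96 and 1.64 in unlesioned 1 to 4. The ratio averaged 3.38 ± 0.16 in lesioned and 1.89 ± 0.198 in unlesioned libraries (SD, n = 4 each), and the groups did not overlap. As a share of the summed TPM of the 3 genes, mdkb made 22.6 ± 0.709% in lesioned and 34.5 ± 2.51% in unlesioned libraries. The share of mdka was 76.4 ± 1.25% in lesioned and 64.9 ± 2.23% in unlesioned libraries, and that of ptn 1.03 ± 0.588% in lesioned and 0.609 ± 0.439% in unlesioned libraries. Ratios within a library do not depend on how libraries are scaled to each other, and they show unequal levels, not which gene was stable. They are given as a description, with no test.

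**Figure D3:**
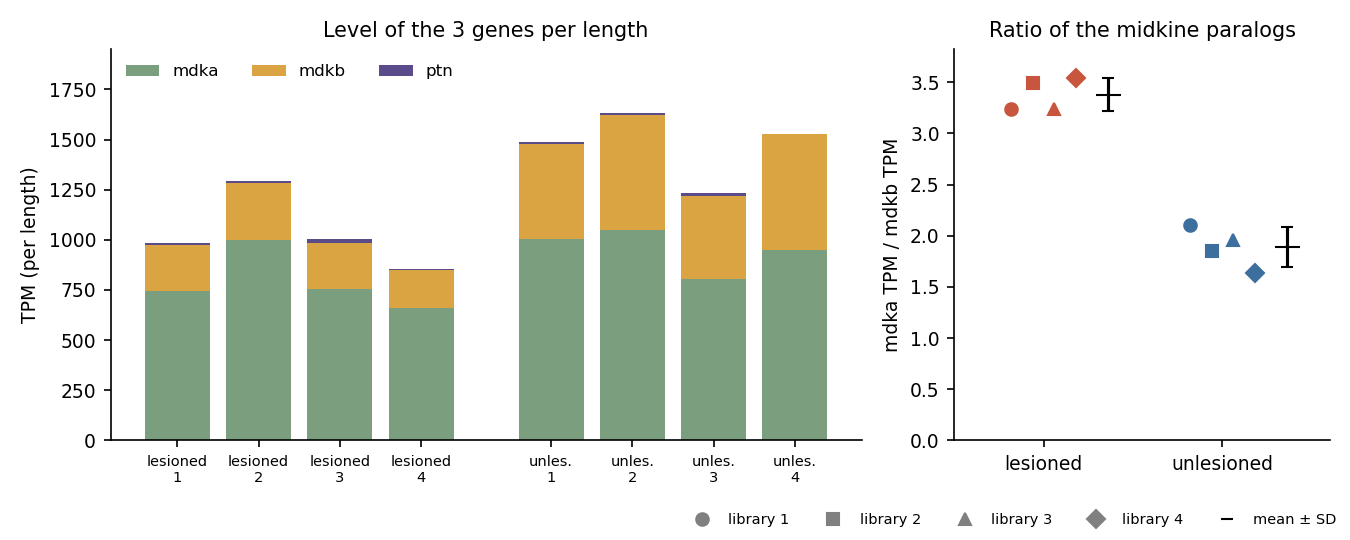
Left, TPM of mdka, mdkb and ptn stacked for each lesioned and unlesioned (unles.) library. Right, ratio of mdka to mdkb TPM per library (points) with the mean and SD of 4 libraries per group. The ratio lies between 3.24 and 3.54 in lesioned and between 1.64 and 2.11 in unlesioned libraries.

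Midkines are also made by neural cells, and lists of markers for 10 kinds of cells were summed in each library. The summed TPM of 1 list, neural progenitors and glia, did not overlap between the groups. Its 20 markers, all found, summed to between 249 and 292 TPM in lesioned and between 373 and 569 TPM in unlesioned libraries, with olig1 alone at 0 in all libraries. Of its 10 tested markers 0 passed in edgeR and 8 had a negative log2 fold change, with a median of -0.77. Over all 15759 genes tested 3 passed in edgeR and 8245 were negative, with a median of -0.04. The most abundant of them was glula, a glutamine synthetase gene, at 102 to 191 TPM in lesioned and 116 to 383 TPM in unlesioned libraries, with overlapping groups. The defining glial gene gfap, an intermediate filament of glia, had 55, 27, 4 and 10 counts in lesioned 1 to 4, and 3, 2560, 424 and 3 counts in unlesioned 1 to 4. Members of the list did not all go one way. For fabp7a there were 77, 13, 18 and 19 counts in lesioned 1 to 4, and 29, 1046, 114 and 40 in unlesioned 1 to 4. For sox10 there were 166, 31, 0 and 27 counts in lesioned 1 to 4, and 0, 0, 0 and 3 in unlesioned 1 to 4. In unlesioned 1 and 4, with 3 counts of gfap each, mdkb had 261 and 335 CPM, and the glial sums were 373 and 383 TPM, both above every lesioned library. Without unlesioned 2 and 3, a setting chosen after the data were seen, the log2 fold change of mdkb was -1.22 ± 0.26 (SE, adjusted p = 0.267 in edgeR), that of mdka -0.35 ± 0.25 and that of ptn 1.12 ± 0.86. That setting leaves the sums of this marker list apart between the groups. In unlesioned 1 and 4, gfap made only 0.103 and 0.101 TPM of those sums and fabp7a 3.08 and 4.17 TPM. The rest came from other members of the list, and whether the sums there stand for more glial cells was not tested. The part of glial cells in the difference of mdkb was not tested.

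Mural cell markers belong to the perivascular cells that the reporter labels. The 19 markers found of 21 summed to 3899.9 to 7240.2 TPM in lesioned and 6052 to 20135 TPM in unlesioned libraries, and none was at 0 in all of them. Of the 19 tested, 0 passed in edgeR and 16 had a negative log2 fold change, with a median of -0.65. Of all 15759 genes tested, 3 passed in edgeR and 8245 were negative, with a median of -0.04. The most abundant was the smooth muscle actin gene acta2, at 1894 to 3708 TPM in lesioned and 2558 to 9969.9 TPM in unlesioned libraries. Their part in the difference of mdkb was not tested. Without unlesioned 4, the library with the highest mural sum, the log2 fold change of mdkb was -1.19 ± 0.22 (SE, adjusted p = 0.203 in edgeR). The mural sums of unlesioned 1 to 3 were 11952, 9294 and 6052 TPM, so leaving out unlesioned 4 does not even out the mural sums.

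**Figure D4:**
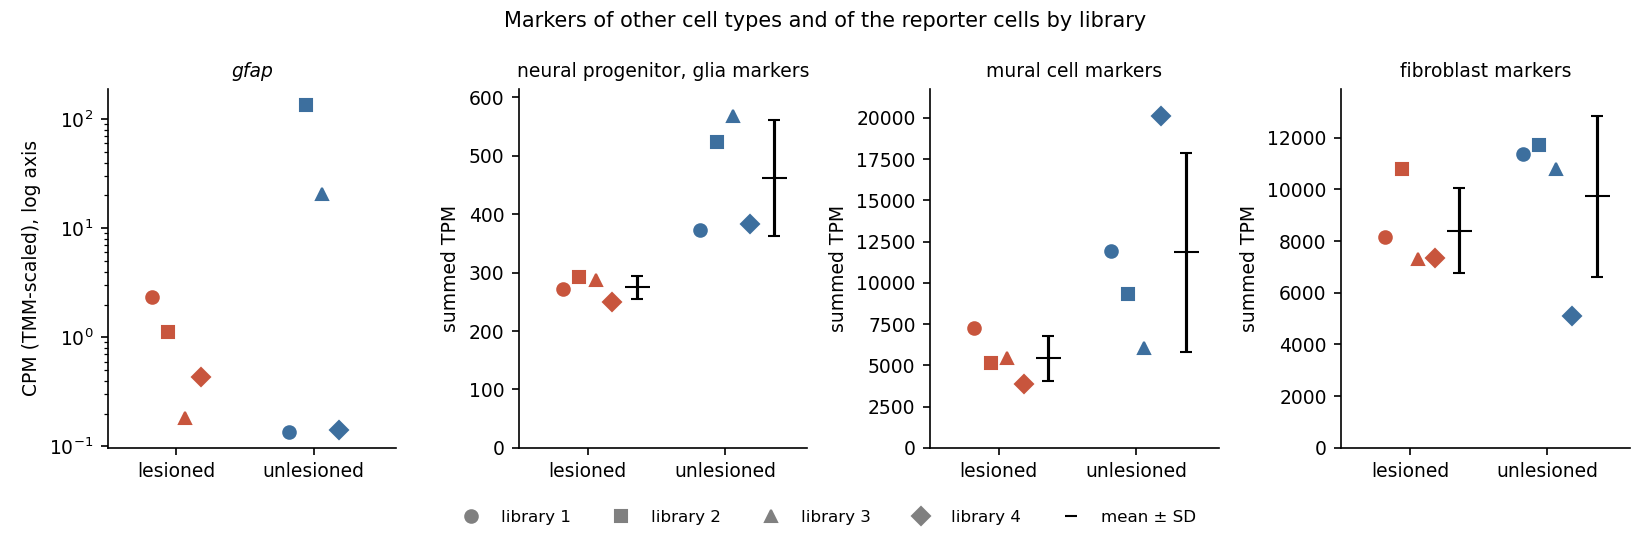
CPM of the glial gene gfap on a log axis, and summed TPM of the markers of neural progenitors and glia, mural cells and fibroblasts, per library, with the mean and SD of 4 libraries for the sums. The glial sums do not overlap between the groups. Those of gfap overlap, with 0.181 to 2.34 CPM in lesioned libraries and 0.137, 134, 20.4 and 0.141 CPM in unlesioned 1 to 4.

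The other marker sums overlapped between the groups. Neuron markers (21 of 22 found) summed to 50.9 to 102 TPM in lesioned and 60.0 to 126 TPM in unlesioned libraries. Endothelial markers (20 of 20, lyve1b at 0 in all libraries) summed to 50.1 to 74.5 TPM in lesioned and 67.1 to 113 TPM in unlesioned libraries. Both sums were small beside those of the fibroblast and mural lists. The epidermal and skeletal muscle sums below were not, and in some lesioned libraries lay within the mural range. Sums over different genes do not measure shares of cells. Markers of macrophages and other leukocytes (17 of 20) summed to 35.7 to 199 TPM in lesioned and 30.1 to 419.6 TPM in unlesioned libraries. Erythroid markers (10 of 14) summed to 98.3 to 159.9 TPM in lesioned and 128 to 319.9 TPM in unlesioned libraries. Reads of these markers were present in every library. The sums of epidermal markers (20 of 20) were 2981 to 6254 TPM in lesioned and 1635 to 7333 TPM in unlesioned libraries. Those of skeletal muscle (17 of 20) were 919 to 6383 TPM in lesioned and 1403 to 3940.3 TPM in unlesioned libraries, and those of notochord (15 of 15) were 601 to 967 TPM in lesioned and 533 to 1393 TPM in unlesioned libraries. None of the markers of these lists other than lyve1b was at 0 in all libraries. In edgeR 0 of the tested markers of any list passed, where 3 of all 15759 genes tested did. Of all genes tested 8245 had a negative log2 fold change, with a median of -0.04. The median log2 fold change was 1.17 for skeletal muscle markers, with 2 of 16 negative. It was -1.0 for erythroid markers (5 of 7 negative), -0.85 for neuron markers (8 of 10), -0.68 for leukocyte markers (6 of 9) and -0.62 for endothelial markers (10 of 14). For notochord markers it was 0.29 (6 of 13 negative), for fibroblast markers -0.20 (17 of 27) and for epidermal markers -0.10 (10 of 19). The part of these cell types in the differences of mdka and mdkb was not tested.

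Receptors and co-receptors of the 2 growth factors showed no shared direction. Of 31 listed genes 28 were found and 25 tested, and 0 passed in edgeR or limma voom. At an unadjusted p under 0.05, 2 were higher and 1 lower in edgeR. DESeq2 called 1 higher and 1 lower of the 16 with an adjusted p. The median log2 fold change was -0.06, with 11 positive and 14 negative. Over all genes tested it was -0.04, with 7514 positive and 8245 negative. The groups did not overlap for 2 of the 25, both higher, where all genes tested gave 5.32% higher and 3.91% lower. All genes gave 6.07% higher and 5.48% lower at an unadjusted p under 0.05, and in DESeq2 3.4% higher and 3.0% lower. The counts of the list are too small to set it apart from these shares. This list and those that follow were drawn up with earlier results of these data known.

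The most abundant gene of the list per length was sdc4, a syndecan, a transmembrane heparan sulfate proteoglycan. It had 2492, 2209.5, 4887 and 2658 CPM in lesioned 1 to 4, against 5041, 4795, 8951 and 6544 CPM in unlesioned 1 to 4. On this scale lesioned 3 lay above unlesioned 2 and every other pair kept the lesioned library lower. On the TPM scale the groups did not overlap, with 2071 to 3743 TPM in lesioned and 3940.3 to 6171 TPM in unlesioned libraries. The log2 fold change of sdc4 was -1.05 ± 0.31 (SE, adjusted p = 0.229 in edgeR and 0.0465 in DESeq2). The other syndecan tested, sdc2, had 93.0 CPM in lesioned and 122 CPM in unlesioned libraries (adjusted p = 0.613 in edgeR).

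The phosphatase zeta genes and the kinase genes ltk and alk had few reads. The values were 11.5 CPM in lesioned and 8.99 CPM in unlesioned libraries for ptprz1a, and 4.58 CPM in lesioned and 12.3 CPM in unlesioned libraries for ptprz1b, with adjusted p of 0.914 and 0.576 in edgeR. The kinase gene ltk had 4.78 CPM in lesioned and 3.44 CPM in unlesioned libraries. Its relative alk did not pass the filter on low counts, with 30 counts over the lesioned and 10 over the unlesioned libraries and at most 9 in a single library. The LDL receptor-related gene lrp1aa had 156 CPM in lesioned and 163 CPM in unlesioned libraries. Its paralog lrp1ab had 89.0 ± 12 CPM in lesioned and 64.0 ± 6.92 CPM in unlesioned libraries, with groups that did not overlap. The log2 fold change of lrp1ab was 0.47 ± 0.20, and edgeR gave it an adjusted p of 0.389. The nucleolin gene ncl had 777 CPM in lesioned and 556 CPM in unlesioned libraries (adjusted p = 0.620 in edgeR).

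Among integrins, itga6a, an alpha subunit of laminin receptors, had 27.0 ± 8.76 CPM in lesioned and 3.46 ± 4.57 CPM in unlesioned libraries (SD, n = 4 each). The fitted change of itga6a was 2.96 ± 1.06 on the log2 scale (adjusted p = 0.302 in edgeR and 0.0383 in DESeq2), the groups did not overlap, and 30.5% of its exon bases are shared with another gene. Its paralog itga6b had 37.7 CPM in lesioned and 50.7 CPM in unlesioned libraries. The beta subunit gene itgb1a had 166 CPM in lesioned and 132 CPM in unlesioned libraries, and itgb1b 57.2 CPM in lesioned and 82.5 CPM in unlesioned libraries. None of these passed in edgeR.

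Of enzymes that build and trim heparan sulfate, the sugar chain to which the factors bind, 39 were listed, 34 found and 25 tested. Here too 0 passed in edgeR or limma voom. In DESeq2 0 of the 16 with an adjusted p passed, where all genes gave 3.4% higher and 3.0% lower. At an unadjusted p under 0.05, 0 were higher and 1 lower in edgeR. The median log2 fold change was -0.19, with 9 positive and 16 negative. The one was hs6st1b, a 6-O-sulfotransferase, at 14.7 ± 4.23 CPM in lesioned and 25.9 ± 7.32 CPM in unlesioned libraries (log2 fold change -0.82 ± 0.34, adjusted p = 0.384 in edgeR). The heparanase relative hpse2 had 3.01 CPM in lesioned and 6.41 CPM in unlesioned libraries. For b3gat3, an enzyme of the linker that joins the chain to its core protein, the values were 19.2 ± 3.98 CPM in lesioned and 8.61 ± 6.17 CPM in unlesioned libraries, and this was the only one of the 25 genes whose groups did not overlap. Over all genes tested 9.23% did not overlap and 11.6% had an unadjusted p under 0.05, where the list gave 1 of 25 for each. With 25 genes these counts are too small to set the list apart from the shares of all genes. The most abundant gene per length, the chain polymerase subunit ext2, had 83.7 CPM in lesioned and 110 CPM in unlesioned libraries (adjusted p = 0.654 in edgeR).

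Among proteoglycan core proteins and chondroitin sulfotransferases, 0 of 20 tested genes passed in edgeR or limma voom, with 31 found and 33 listed. At an unadjusted p under 0.05, 1 was higher and 4 lower in edgeR. DESeq2 called 0 higher and 1 lower of the 10 with an adjusted p, where all genes gave 3.4% higher and 3.0% lower. The median log2 fold change was -0.26, with 7 positive and 13 negative, against 7514 and 8245 over all genes tested. Of the 20, 4 had every lesioned library below every unlesioned one, and 1 had the opposite pattern, where all genes tested gave 3.91% lower and 5.32% higher. The share of all genes at an unadjusted p under 0.05 was 5.48% lower and 6.07% higher. These counts are a description and were not tested. The gene usta, a sulfotransferase that acts on uronic acid, had 19.5 ± 7.77 CPM in lesioned and 42.8 ± 9.48 CPM in unlesioned libraries. For usta the log2 value was -1.13 ± 0.35, with an adjusted p of 0.234 in edgeR and 0.0493 in DESeq2. The glypican gene gpc6a had 23.2 ± 9.83 CPM in lesioned and 49.3 ± 10.7 CPM in unlesioned libraries (log2 fold change -1.09 ± 0.37, adjusted p = 0.274 in edgeR). The neural proteoglycan gene cspg5a, whose mammalian product binds midkine, was close to 0 with 0.190 ± 0.261 CPM in lesioned and 2.94 ± 1.73 CPM in unlesioned libraries (adjusted p = 0.323 in edgeR). The most abundant gene per length, the versican gene vcanb, had 367 ± 252 CPM in lesioned and 229 ± 109 CPM in unlesioned libraries, with overlapping groups (adjusted p = 0.704 in edgeR).

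**Figure D5:**
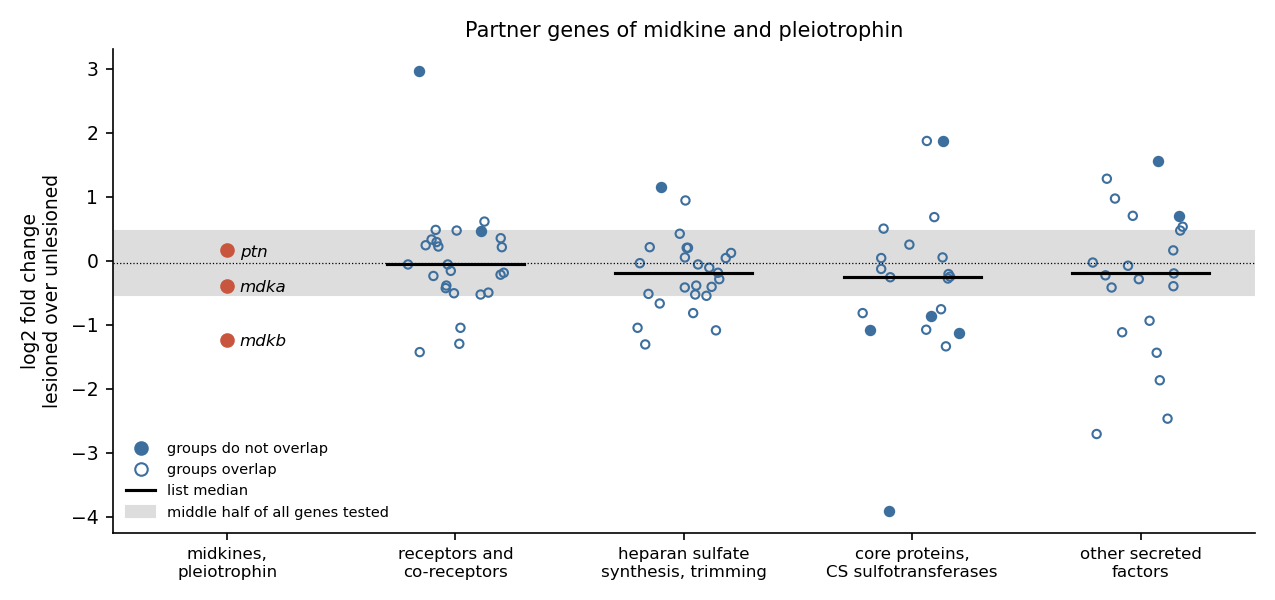
Log2 fold change, lesioned over unlesioned, of mdka, mdkb and ptn and of the tested genes of 4 lists of partner genes (points, spread sideways for legibility), with list medians as bars and the central quartiles of all genes tested in grey. List medians lie between -0.26 and -0.06, close to -0.04 for all genes tested, and mdkb at -1.24 lies below the grey band.

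Other heparin-binding or neurite-promoting secreted factors had values on both sides of 0. Of 32 listed genes 28 were found and 21 tested, and 0 passed in edgeR or limma voom. DESeq2 called 1 higher and 0 lower of the 10 with an adjusted p, where all genes gave 3.4% higher and 3.0% lower. At an unadjusted p under 0.05, 2 were higher and 2 lower in edgeR. The median log2 fold change was -0.20, with 8 positive and 13 negative, against 7514 and 8245 over all genes tested. Of the 21, the groups did not overlap for 2, both higher, where all genes tested gave 5.32% higher. Of all genes 6.07% were higher and 5.48% lower at an unadjusted p under 0.05, so the counts of the list are too small to set it apart. The 2 genes were clcf1, whose mammalian product is a cytokine of the CNTF receptor, and manf, a factor secreted under stress of the endoplasmic reticulum. The gene clcf1 had 105, 55.9, 55.2 and 192 CPM in lesioned 1 to 4, against 38.7, 38.3, 31.8 and 30.3 CPM in unlesioned 1 to 4. The fitted log2 value of clcf1 was 1.55 ± 0.40, with an adjusted p of 0.188 in edgeR and 0.0127 in DESeq2. For manf, also the most abundant of the list per length, the values were 293 ± 78.9 CPM in lesioned and 182 ± 52.3 CPM in unlesioned libraries (log2 fold change 0.69 ± 0.28, edgeR adjusted p = 0.378). The neuregulin gene nrg1 had 20.2 ± 9.10 CPM in lesioned and 54.7 ± 34.0 CPM in unlesioned libraries (log2 fold change -1.44 ± 0.55, adjusted p = 0.338 in edgeR). Both midkines were more abundant per length than any factor of this list. The mean over all libraries was 871 TPM for mdka and 371 TPM for mdkb, against 281 TPM for manf.

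Genes with the most similar profiles were found by the root mean square difference of centred log2(CPM + 1) over the 8 libraries, among 8072 other genes with a mean of at least 10 CPM. Nearest to mdkb were a histone gene listed as H3-3B (difference 0.136), sh3bp5la (0.165) and ptmaa, a prothymosin alpha gene (0.190), where the median gene differed by 0.822. H3-3B had 968 ± 153 CPM in lesioned and 2217 ± 256 CPM in unlesioned libraries, and belongs to a family of near-identical histone genes whose reads the counting may split. Nearest to mdka were gtpbp4 (0.071), srsf6b (0.0916) and rtca (0.0989), with a median of 0.571. Among the nearest to ptn were mgat1b (0.411) and rasgef1bb (0.416), with a median of 1.1. These profiles were farther from ptn than the named ones of either midkine were from theirs. The profiles of mdka and mdkb differed from each other by 0.430, that of ptn from mdka by 1.01 and from mdkb by 1.26.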

How the data were processed

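RNA-seq was measured in 8 libraries of sorted cells, 4 lesioned and 4 unlesioned, grouped by their titles. The table deposited by the authors gives unnormalized read counts for each gene. The submitters' processing notes list bcl2fastq 2.19.1, GSNAP, featureCounts 1.6.2 and the build GRCz11, whereas the header of the table gives the counter as featureCounts 1.6.3. Per the file header, counting used Ensembl 92 gene models without regard to strand (setting 0) and required a mapping quality of at least 1. Per the labels, libraries followed SMART-seq2. The gene length column (exon bases) was also deposited by the authors.

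The 92 spike-in entries were left out. The table gives identifiers only. A zebrafish symbol was given for 16694 of 31901 genes in the reference table, and 11119 symbols in capitals were resolved by shared neighbours in RefSeq GRCz12tu, using 15 genes on each side and at least 2 shared. The members came by this route, with 21 (mdka), 25 (mdkb) and 28 (ptn) shared neighbours. Of 2347 paralogs of known symbol, 2295 came back with their own, 2 with another, and 50 without a symbol.

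Lesioned and unlesioned libraries were compared with edgeR 4.0.16 in R 4.3.3 (TMM, filterByExpr, robust quasi-likelihood F-test, two-sided) on all 15759 genes that passed the filter, with Benjamini-Hochberg adjustment and a threshold of 0.05. DESeq2 1.42.0 and limma 3.58.1 (voom) were alternatives. The members and lists were chosen with earlier results of these data known. Named genes are the 3 members, from each of 4 partner lists the 3 with the lowest p and the most abundant per length, from each marker list the most abundant, and the 3 nearest profiles per member, of which 1 is not reported here; other genes named were chosen after their values were seen. The scripts were tested on simulated data.

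The replicate number was checked for pairing by correlating deviations from group means across genes. Correlations were 0.192, 0.182, 0.232 and 0.154 for numbers 1 to 4. All exceeded 0.1, the limit for taking libraries as paired. Different numbers gave 0.199 (lesioned 1 with unlesioned 2) and 0.182 (lesioned 2 with unlesioned 1), so numbers 1 and 2 were not separated from each other. The pairing comes from the data, since the labels do not say what the number marks. The main values come from the fit without the number, and the fit with the number as a block is an alternative. The common dispersion was 0.561, a biological coefficient of variation of 74.9%.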

Additional observations from a re-analysis of the deposited data

Results flagged for a closer look

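A library was set apart where its gap to the nearest other library of its group took most of the group's range (Dixon's test at 95%); chance gives about 1 such case in 20, and 4 of 72 checks were met. The mdka level in unlesioned 2 was 1526 CPM, with 1373 to 1396 CPM in the other unlesioned libraries. The sdc4 level in lesioned 3 was 4887 CPM, with 2209.5 to 2658 CPM in the other lesioned libraries. The summed TPM of neuron markers was 126 in unlesioned 4, with 60.0 to 65.0 in the others of its group. In the same library the summed TPM of fibroblast markers was 5098, with 10774 to 11720.2 in the others.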

How the results depend on the processing

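Each result was recomputed under 18 settings planned at the outset and 1 added after the data were seen (both unlesioned libraries with over 10 CPM of gfap left out). In all 19, mdka and mdkb stayed negative in log2 fold change, and mdka passed in none. For mdkb, DESeq2 alone passed (-1.24, adjusted p = 2.87e-05), and leaving out 1 library at a time gave -1.31 to -1.13 with adjusted p of 0.127 to 0.369. For mdka that range was -0.47 to -0.30. The value of ptn turned to -0.11 in libraries 1 and 2 alone and ran from -0.35 without lesioned 3 to 0.65 without unlesioned 3; it was -0.20 without unlesioned 4. With the replicate block in edgeR the values were -1.25 for mdkb (adjusted p = 0.127), -0.41 for mdka (adjusted p = 0.251) and 0.40 for ptn. The block changed no call on them. The 95% interval of mdka ran from -0.73 to -0.08 with the block, against -0.82 to 0.03 without it. Over all genes edgeR called 3 higher and 0 lower. DESeq2 called 275 and 242, the unfiltered fit 5 and 1, the fit with a term for libraries 1 and 2 against 3 and 4 called 7 and 7, libraries 1 and 2 alone 5 and 1, libraries 3 and 4 alone 0 and 0, and the added setting 6 and 2. Leaving out 1 library gave 3 to 7 higher and 0 to 1 lower, most without unlesioned 3. The receptor list median was 0.32 in libraries 1 and 2 alone, that of core proteins -0.06 with library size only, and that of other secreted factors 0.21 with the stricter filter and 0.59 in libraries 3 and 4 alone. The cause of these shifts was not tested.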
